A study of Mus musculus with 2 samples.

Results

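Integrins, laminins and nidogens were followed in the gastrocnemius, the main calf muscle, of newborn mice. The members are the protein-coding genes whose symbols have the form of an integrin alpha or beta gene or of a laminin alpha, beta or gamma chain gene, together with Nid1 and Nid2. The rule found 39 genes (18 integrin alpha, 8 integrin beta, 11 laminin chain and 2 nidogen genes) of 21901 protein-coding genes and 55536 Ensembl genes in all. No measured value entered the rule.

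The study sequenced total RNA from female B6CASTF1/J mice aged 4 days, which are first-generation hybrids of C57BL/6J and CAST/EiJ. It held 1 group of 2 libraries, called biological replicates 1 and 2, from the animals numbered 3 and 4, with no treatment, mutation or other age to set them against. Both animals carry the same donor record, and whether they were littermates is not known. Each library was made from 300 ng of RNA after ribosomal RNA reduction, and held 30961087 expected counts in replicate 1 and 36246031 in replicate 2, of which 130973 and 156209 fell on the members. All 7 muscle fibre markers examined were detected, at 36216 and 42841 summed TPM. Levels are given as TPM (a transcript's share of all transcripts, scaled to a fixed total), which correct for gene length and can be compared between genes, and means carry the SD over the 2 libraries (n = 2).

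Laminins are trimers of an alpha, a beta and a gamma chain that assemble into the sheet of the basement membrane around each muscle fibre, vessel and nerve, and nidogens bind the gamma chain and link laminin to collagen IV. Integrins are alpha-beta pairs that span the cell membrane, bind matrix proteins outside and hold the actin cytoskeleton inside through talin and kindlin. In skeletal muscle the laminin with the alpha2 chain and the integrin alpha7 beta1 form a link from fibre to matrix whose loss causes muscular dystrophy, alongside the dystroglycan complex.

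Of the 39 members 31 reached 1 TPM in both libraries, the level taken as detected, against 55% of all protein-coding genes. The median of the detected members was 14.3 TPM, against 9.92 TPM over the 12051 protein-coding genes detected. The members under this level included Lama1, Lama3, Lamc3, Itgad, Itgae, Itgax and Itgb7. The members reached from 0.01 TPM for Itgad to 171 TPM for Itgb1, and the plot of the members shows that each gene's libraries lie close together next to this range.

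**Figure D1:**
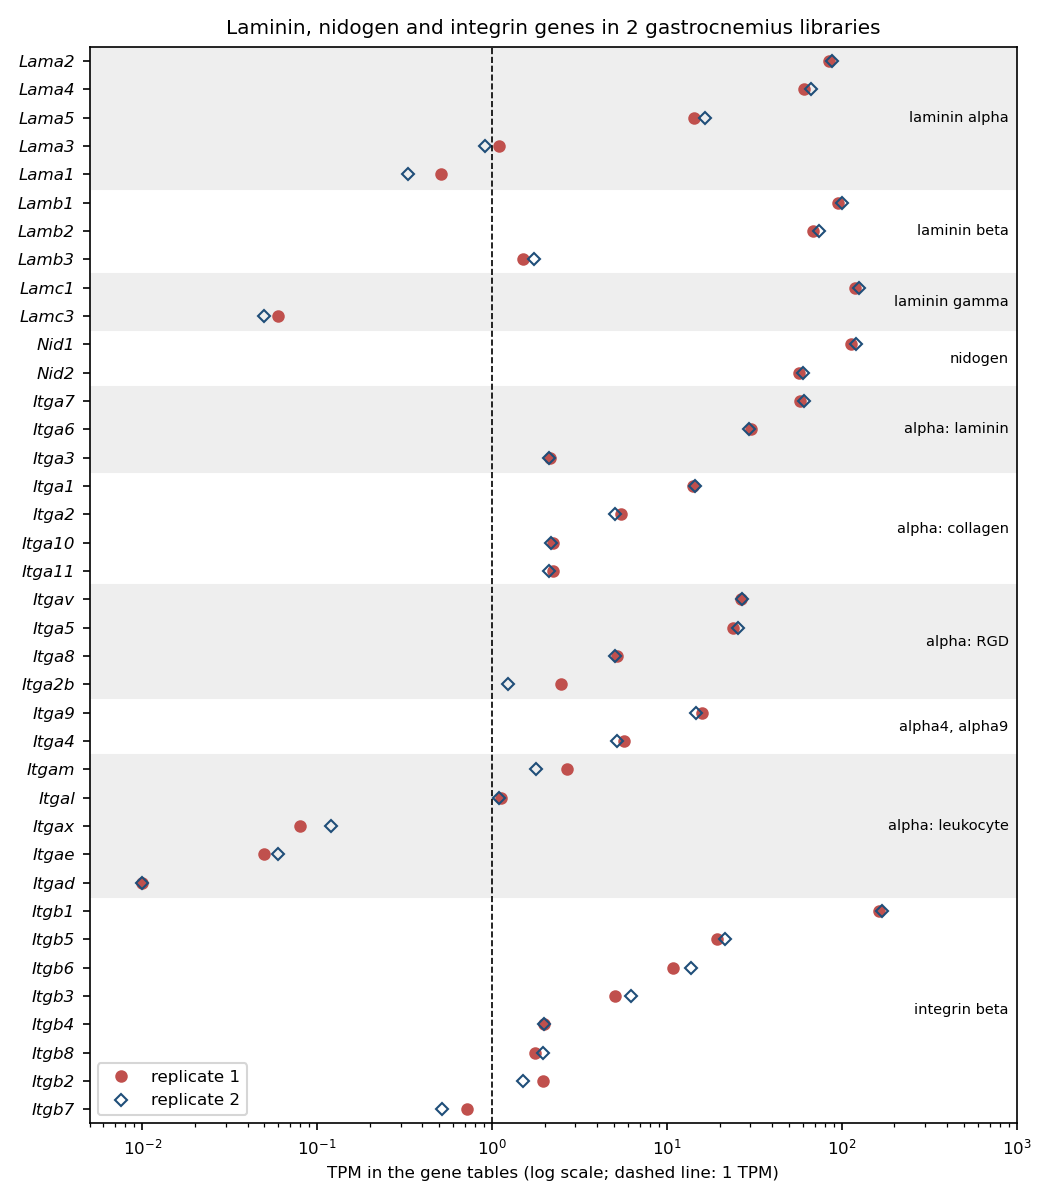
TPM of the members on a log axis, grouped by role, with replicate 1 as filled circles and replicate 2 as open diamonds; the dashed line marks 1 TPM. Lamc1, Nid1 and Itgb1 lie above 100 TPM in both libraries, while Lamc3, Itgax, Itgae and Itgad lie near or below 0.1 TPM.

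Among the laminin alpha chains, which carry the receptor-binding globular end of the trimer, Lama2 and Lama4 held most of the RNA. Lama2, the alpha chain of the muscle fibre basement membrane, lies at chr10:26980036-27619758 (mm10) and had 85.0 TPM in replicate 1 and 87.5 TPM in replicate 2, which was 51.8% ± 1.24 of the laminin alpha TPM. Lama4, the alpha chain of vessels and of developing fibres, had 60.6 and 66.6 TPM (38.2% ± 0.888). Lama5, a broadly used alpha chain that marks the synaptic and vascular basement membrane, had 14.2 and 16.5 TPM (9.21% ± 0.545). The ranges of these chains did not overlap, so the order Lama2, Lama4, Lama5 was the same in both libraries. Lama3, an alpha chain of epithelial basement membranes, had 1.09 and 0.91 TPM. Lama1, the alpha chain of the early embryo, had 0.51 and 0.33 TPM, and the model that led its TPM has no coding sequence.

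The order of the leading alpha chains depended on which transcript models were counted. Only 46.3% of the Lama2 TPM came from transcripts annotated with both a start and a stop codon, against 73.8% for Lama4. The full transcript Lama2-201, of 9614 nt, had 36.4 and 36.9 TPM. Retained-intron models Lama2-204 (14.4 and 12.7 TPM) and Lama2-206 (13.8 and 14.8 TPM) and the partial coding model Lama2-208 (14.0 and 16.1 TPM) made up most of the rest. With complete coding transcripts alone, Lama2 had 39.6 and 40.3 TPM and Lama4 had 45.2 and 48.6 TPM, so Lama4 stood above Lama2 in both libraries. The ratio of Lama2 to Lama4 was 1.36 ± 0.0642 over all models, 0.852 ± 0.0313 over complete coding transcripts and 1.13 ± 0.0626 in the other quantification, a separate table of transcript levels that the authors deposited for the same libraries. Which of these comes nearest to the number of chains translated was not tested.

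**Figure D2:**
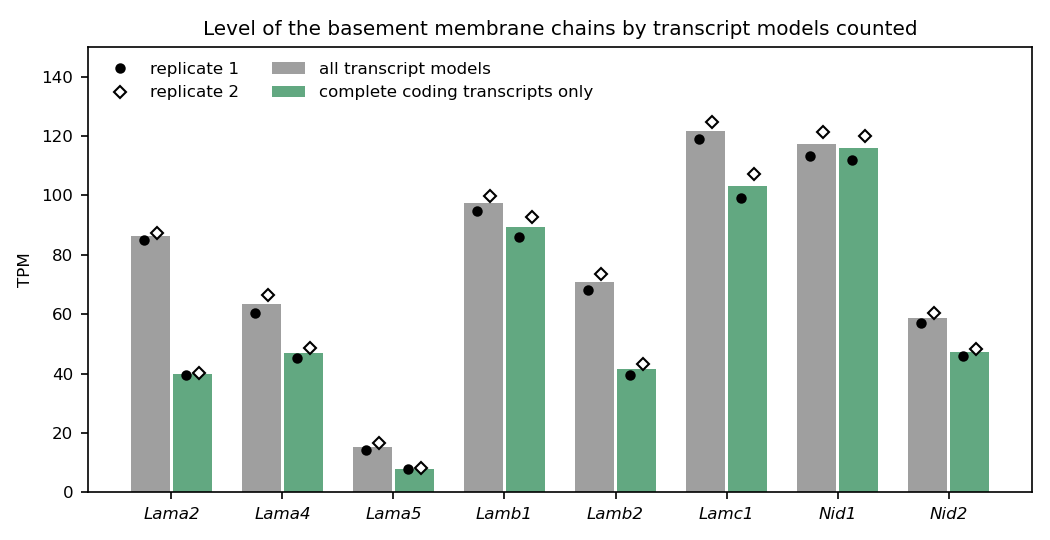
TPM of the 8 main laminin and nidogen genes from all transcript models (grey bars) and from complete coding transcripts (green bars), with bars at the mean and symbols at each library. Nid1 is nearly the same on both scales, while Lama2, at 86.2 TPM over all models, falls below Lama4 on the green bars.

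Of the beta chains, Lamb1, present in most basement membranes, had 94.9 and 100 TPM and took 57.3% ± 0.476 of the laminin beta TPM. Lamb2, the beta chain concentrated at the neuromuscular junction and in mature vessels, had 68.1 and 73.7 TPM (41.7% ± 0.428). Both chains were thus abundant at this age, with no overlap between their ranges. Lamb2 also drew on short models, since 58.6% of its TPM came from complete coding transcripts against 91.6% for Lamb1, and the ratio of Lamb1 to Lamb2 was 1.37 ± 0.0255 over all models and 2.15 ± 0.0230 over complete ones. Lamb3, a beta chain of epithelial laminins, had 1.51 and 1.73 TPM. Its model Lamb3-207, without coding sequence, led these TPM, while the complete coding model Lamb3-209 led in the other quantification with 78.9%.

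Of the gamma chains a single gene was abundant. Lamc1, the gamma chain of nearly all laminins, had 119 and 125 TPM, which was 99.3% ± 0.0761 of the laminin gamma TPM. It lies on the minus strand at chr1:153218922-153332786. Lamc3 had 0.06 and 0.05 TPM, from 10 and 9 counts. The epithelial chains Lama3 and Lamb3 thus lay between 0.91 and 1.73 TPM, and the keratinocyte and epithelium markers summed to 6.40 and 8.22 TPM with 2 of 7 detected; the part of such cells in these low levels was not tested.

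Summed over genes, the alpha chains had 161 and 172 TPM, the beta chains 165 and 175 TPM, and the gamma chains 120 and 126 TPM. The alpha to gamma ratio was 1.36 ± 0.0158 and the beta to gamma ratio 1.38 ± 0.0174, although the protein is built from equal numbers of each chain. Over complete coding transcripts the alpha to gamma ratio was 0.925 ± 0.0232, below 1 in both libraries, and the beta to gamma ratio was 1.27 in both. By expected counts, not divided by length, the beta to gamma ratio was 0.953 in both libraries. The direction of each difference from gamma therefore depended on the scale.

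Nid1, the main nidogen of most basement membranes, had 113 and 121 TPM (66.6% ± 0.272 of the nidogen TPM), and Nid2, which can stand in for Nid1, had 57.2 and 60.3 TPM. Nid1 was higher by 1.99 ± 0.0244 times over all models and by 2.45 ± 0.0323 times over complete coding transcripts. The nidogens together (170 and 182 TPM) stood at 1.43 ± 0.0179 times the gamma chains to which they bind. Nid2 shares 437 exon bases with Rtraf on the opposite strand, which had 1348 and 1556 counts against 6355 and 7528 for Nid2, and the sources used here do not say how strand was counted.

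Among the integrin alpha genes, those whose products bind laminin led. Itga7, the laminin receptor of muscle fibres and their precursors, had 58.0 and 60.6 TPM, and Itga6, a laminin receptor of vessels, nerve and early muscle, had 30.1 and 29.6 TPM. Itga3, a laminin receptor of epithelia, had 2.14 and 2.13 TPM. Together these 3 genes took 46.2% ± 0.703 of the TPM of all integrin alpha genes, and Itga7 alone took 30.0% ± 0.910, or 19.9% by expected counts. Itga7 was above Itga6 in both libraries by every measure used, by 1.99 ± 0.0870 times in the gene tables and 1.40 ± 0.0282 times in the other quantification.

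The receptors for fibronectin, vitronectin and related ligands, which read the tripeptide RGD, came next with 29.5% ± 0.234. Itgav, which pairs with several beta chains and takes part in activating latent TGF-beta, had 26.6 and 26.9 TPM. Itga5, the fibronectin receptor chain, had 23.7 and 25.4 TPM. Itga8, a receptor chain for nephronectin, had 5.18 and 5.05 TPM, while its ligand gene Npnt had 23.8 and 25.6 TPM. Itgav was above Itga5 in both libraries, but Itga5 was the higher over complete coding transcripts and in the other quantification, so their order depended on the scale. Itga2b, the platelet chain, had 2.47 and 1.23 TPM from 88 and 55 counts, with 21.3% of its TPM from complete coding transcripts.

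The collagen receptors held 12.1% ± 0.0379. Itga1, a receptor for collagen IV in vessels and muscle, had 14.1 and 14.5 TPM, and its neighbour Itga2, a receptor for fibrillar collagen on platelets and epithelium, had 5.46 and 5.06 TPM, with 20.995 kb and no coding gene between them on chromosome 13. Itga10, a cartilage collagen receptor, had 2.22 and 2.17 TPM, and Itga11, a fibroblast collagen receptor, had 2.23 and 2.11 TPM. The values of Itga10 and Itga11 overlapped and their order cannot be told. Itga1 shares 685 exon bases with the predicted gene Gm49395 on the same strand (88.7 and 80.6 counts), and Itga10 shares 1739 with Gm42957 (61.5 and 13.5 counts, beside 277 and 245 for Itga10), so how the authors' counting split those reads touches Itga10 most.

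Itga9, a receptor chain for tenascin-C and osteopontin, had 15.8 and 14.8 TPM, and Itga4, which binds VCAM-1 and fibronectin on blood and muscle precursor cells, had 5.71 and 5.19 TPM. They made up 10.5% ± 0.578. Itga9 and Itga1, next to each other in the order of levels, did not overlap, though Itga9 in replicate 2 and Itga1 in the same library were nearly level. Over complete coding transcripts Itga9 also stood above Itga1 in both libraries (14.5 and 13.7 TPM against 6.87 and 6.82 TPM). The other quantification put Itga9 (46.9 and 38.7 TPM) above both Itga1 (22.8 and 22.2 TPM) and Itgav. The Itga9 share was 7.73% by gene TPM and 12.9% by that quantification. By expected counts the Itga9 share was 12.4%, and the values of Itga9 and Itga1 (12.6%) crossed between libraries. Of the 5 leukocyte alpha genes, Itgam, the complement receptor chain of myeloid cells, had 2.69 and 1.78 TPM, and Itgal, the LFA-1 chain, had 1.13 and 1.09 TPM. Itgax, Itgae and Itgad had at most 9 counts in any library. Itgam shares 3450 exon bases with the predicted gene Gm49368 on the same strand, to which no counts were assigned. The leukocyte group held 1.78% ± 0.322 of the alpha TPM.

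Itgb1, the beta chain shared by most matrix receptors, lies at chr8:128685654-128733200 and had 163 and 171 TPM, which was 78.9% ± 1.04 of the integrin beta TPM and the highest level of any member. The 12 alpha genes that pair with it summed to 191 and 193 TPM, or 1.15 ± 0.0300 times Itgb1. Over complete coding transcripts this ratio was 0.910 ± 0.0153, so the direction of the difference depended on the models counted. Itgb5, a vitronectin receptor chain, had 19.2 and 21.6 TPM, and Itgb6, an epithelial chain that activates latent TGF-beta, had 10.9 and 13.8 TPM. Itgb3, the partner of Itgav and Itga2b, had 5.03 and 6.26 TPM. Itgb4, the laminin receptor chain of hemidesmosomes, had 1.98 TPM in both libraries, and Itgb8, which pairs with Itgav, had 1.76 and 1.96 TPM. Itgb2, the leukocyte beta chain, had 1.97 and 1.51 TPM, and Itgb7, a lymphocyte chain, had 0.72 and 0.52 TPM. Itgb2, Itgb4 and Itgb8 lay close together or overlapped, and no order is given among them.

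Itgb6 is best known from epithelia, yet was well expressed here. Its 1113 and 1608 counts gave a higher TPM than Itgb3 in both libraries, while only 2 of 7 keratinocyte and epithelium markers were detected, at a summed 6.40 and 8.22 TPM over the list, less than Itgb6 alone had. Its models Itgb6-202 and Itgb6-201 carry the same coding sequence, and 92.6% of its TPM came from complete coding transcripts. Which cells of the muscle held this RNA cannot be read from bulk tissue, where fewer cells of a type and less RNA per cell cannot be told apart.

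Several integrin genes end in alternative exons that change the part inside the cell, and Itgb1 is the case best known in muscle. In most cells Itgb1 ends in the A form, and striated muscle makes the D form, which inserts an exon with its own stop codon ahead of the A exon and binds talin more tightly. Both ends are shown because the only sequence difference between the forms lies here. They are read from the GENCODE M21 transcripts (mm10, plus strand). Capitals mark bases that are the same in both at the same position over the first 63 bases, where 41 match (65.1%), and each ends in the stop codon tga.
Itgb1 A end, chr8:128732023-128732088: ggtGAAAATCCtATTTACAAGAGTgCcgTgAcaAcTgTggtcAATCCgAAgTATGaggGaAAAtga
Itgb1 D end, chr8:128726983-128727057: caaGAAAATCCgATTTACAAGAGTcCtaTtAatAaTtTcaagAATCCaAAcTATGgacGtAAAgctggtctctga

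Both stretches that encode the asparagine-proline motifs of the beta tail, through which talin and kindlin bind, hold mostly matching bases. Neither stretch matches without a break. The D end, in the model Itgb1-204, had 27.6 and 35.2 TPM against 133 and 133 TPM for the A end. Its share of both ends was 17.2% in replicate 1 and 20.9% in replicate 2 (19.0% ± 2.64), and 19.6% ± 3.02 in the other quantification. The D form was thus the minor end of Itgb1 RNA in both libraries and both tables, and it was higher in replicate 2 in both. The D model is a fragment of 711 nt while the A transcript has 3815 nt, so by expected counts, not divided by length, the D share was 3.74%. No complete D transcript is among these models, and reads from the shared part of a D transcript can be assigned to the A model.

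**Figure D3:**
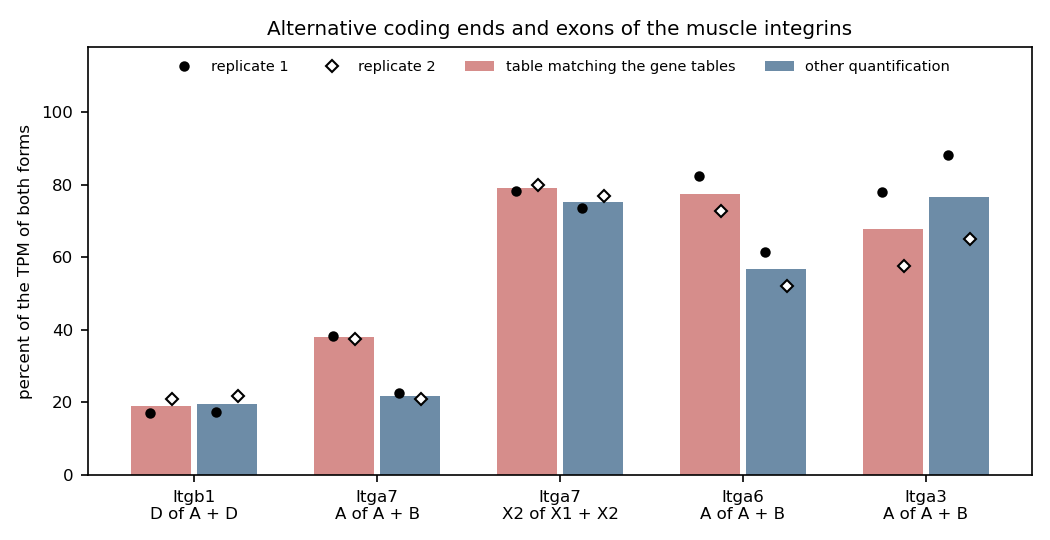
Share of the first-named form in the TPM of both forms, in percent, for 5 alternative ends or exons, from the transcript table that matches the gene tables (red bars) and from the other quantification (blue bars); bars are means and symbols are libraries. The Itgb1 D share is alike in both tables, while the Itga7 A and Itga6 A shares differ between tables by more than between libraries.

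Itga7 is spliced at its inner end and in its ligand-binding region. The A form includes an exon of 113 bases, which is not a multiple of 3, so that the last exon is read in another frame and stops after 58 coding bases in place of 228. The exon and both readings of the last exon are shown because they are the same DNA read to different stops (plus strand). Capitals mark the stop codon used.
Itga7 A exon, chr10:128956611-128956723: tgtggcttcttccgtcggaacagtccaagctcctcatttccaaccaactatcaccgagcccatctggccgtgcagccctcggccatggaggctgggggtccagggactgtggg
Itga7 A end, chr10:128957621-128957681: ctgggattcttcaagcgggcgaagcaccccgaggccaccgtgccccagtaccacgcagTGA
Itga7 B end, chr10:128957621-128957851: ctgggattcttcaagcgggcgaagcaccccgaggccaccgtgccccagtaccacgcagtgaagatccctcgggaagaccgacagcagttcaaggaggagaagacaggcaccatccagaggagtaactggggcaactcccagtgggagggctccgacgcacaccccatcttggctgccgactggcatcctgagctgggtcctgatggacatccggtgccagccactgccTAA

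The B end led, with 31.0 and 33.9 TPM against 19.3 and 20.3 TPM for the A end. The A share was 38.4% and 37.4% in the tables that match the gene tables, and 21.8% ± 1.07 in the other quantification. Since the A model Itga7-204 is a fragment of 984 nt, its share by expected counts was 12.1%. The B end was the major form on each of these scales, but the size of the A share depended on the table by more than the libraries differed. The complete models Itga7-201 and Itga7-202 both carry the B end. Reads from the shared part of an A transcript can therefore be assigned to B models.

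In the ligand-binding region Itga7 uses either the X1 or the X2 exon, which alter its preference among laminins. The exons are shown because they are swapped for each other in otherwise full transcripts (plus strand), with no position marked.
Itga7 X1 exon, chr10:128941445-128941576: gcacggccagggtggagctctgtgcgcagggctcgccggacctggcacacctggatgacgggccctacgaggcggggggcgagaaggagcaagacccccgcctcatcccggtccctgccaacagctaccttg
Itga7 X2 exon, chr10:128941822-128941941: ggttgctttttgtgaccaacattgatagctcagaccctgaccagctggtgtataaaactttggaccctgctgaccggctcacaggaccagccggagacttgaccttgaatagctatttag

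X1 has 132 bases and X2 has 120, both multiples of 3 that keep the frame. X2 (Itga7-201) had 24.2 and 27.1 TPM and X1 (Itga7-202) had 6.75 and 6.76 TPM. The X2 share was 79.1% ± 1.30, and 75.4% ± 2.28 in the other quantification. Because both transcripts are complete and of similar length (4013 and 4020 nt), this share was 79.1% by expected counts as well.

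Itga6 likewise has an A end and a B end, in separate exons, shown with the stop codon in capitals (chromosome 2, plus strand).
Itga6 A end, chr2:71853534-71853641: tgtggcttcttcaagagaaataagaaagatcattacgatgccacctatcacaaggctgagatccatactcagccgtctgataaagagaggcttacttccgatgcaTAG
Itga6 B end, chr2:71855854-71856015: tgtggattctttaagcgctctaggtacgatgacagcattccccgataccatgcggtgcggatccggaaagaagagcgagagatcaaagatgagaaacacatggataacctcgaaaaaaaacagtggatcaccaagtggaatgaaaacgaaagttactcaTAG

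The Itga6 A end had 15.0 and 12.7 TPM and the B end 3.21 and 4.76 TPM, so the A share was 82.3% and 72.7% (77.5% ± 6.80). In the other quantification it was 61.4% and 52.2% (56.8% ± 6.50). The A end was the major one in each library of each table, and higher in replicate 1 in both. A further model without coding sequence, Itga6-203, held 10.8 TPM in both libraries and was left out of these shares. Itga3, at its low level, had an A share of 77.9% and 57.6% from 238 and 253 counts on both ends, the widest spread between libraries of the forms compared.

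In Itga3, Itga6 and Itga7 the exon just ahead of the alternative end has the same length, 126 bases. It encodes the membrane-spanning part and a stretch outside the cell ahead of it. The 3 exons are shown because their likeness was not used to choose the members. Capitals mark the 48 positions that are the same in all of them.
Itga3 exon, chr11:95046921-95047046, minus strand: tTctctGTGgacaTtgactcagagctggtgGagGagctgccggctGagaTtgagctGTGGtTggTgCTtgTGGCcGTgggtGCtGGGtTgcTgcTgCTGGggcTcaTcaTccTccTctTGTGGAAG
Itga6 exon, chr2:71849381-71849506, plus strand: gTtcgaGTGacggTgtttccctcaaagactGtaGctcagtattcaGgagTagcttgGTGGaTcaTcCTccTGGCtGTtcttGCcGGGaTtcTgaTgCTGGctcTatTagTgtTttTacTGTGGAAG
Itga7 exon, chr10:128953946-128954071, plus strand: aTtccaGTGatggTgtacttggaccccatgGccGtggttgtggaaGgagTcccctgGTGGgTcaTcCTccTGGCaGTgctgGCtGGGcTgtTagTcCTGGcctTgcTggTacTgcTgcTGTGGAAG

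Itga6 and Itga7 were the closest pair, with 74 of 126 bases the same (58.7%), followed by Itga3 and Itga7 with 66 (52.4%) and Itga3 and Itga6 with 59 (46.8%). All 3 exons end in the same 8 bases, after which the alternative exon of 142 bases in Itga3, 130 in Itga6 or 113 in Itga7 follows.

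Over all members, 209 transcript models are annotated and 77 of them are complete. Among the 31 detected members, the leading transcript was the same in both quantifications for 26, was complete for 29 and held under 50% of the gene's TPM for 9. Complete coding transcripts gave over 80% of the TPM in 15 members and under 60% in 9. These counts were not made over all genes, so whether the members differ from other genes here was not tested. Itga5 (90.1%), Itga9 (92.4%) and Itga11 (95.0%) lay at the high end, and Itgav (49.2%) and Itga1 (47.9%) at the low end. Itgb5 shows how far the tables can part: its transcript Itgb5-202 took 83.9% in the gene-matched table and 35.4% in the other, and Itgb5-201, whose coding end differs, had 0 and 0.87 TPM in the gene-matched table against 8.16 and 11.4 TPM in the other.

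The libraries were then set against each other, as the log2 ratio of replicate 1 over replicate 2 after scaling by trimmed mean of M values. With 1 library on each side there is no test and no p-value. Among genes averaging 100 counts or more, 0 of 31 members were over 2-fold apart, against 0.718% of all 12257 genes, and 0 of 31 were over 1.5-fold apart, against 2.46%. The 31 members compared are not quite those detected, since Lama3 has the counts but not the TPM and Itga2b the TPM but not the counts. At 0.718% fewer than 1 such gene would be found among 31, so the count of 0 lies near the background. The median log2 ratio was -0.03 for the members and -0.02 for all genes, and the median size of the ratio, whatever its sign, was 0.11 for the members and 0.12 for all genes. Lower values in replicate 1 were found for 18 of 31 members, or nearly the 55.3% of all genes.

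**Figure D4:**
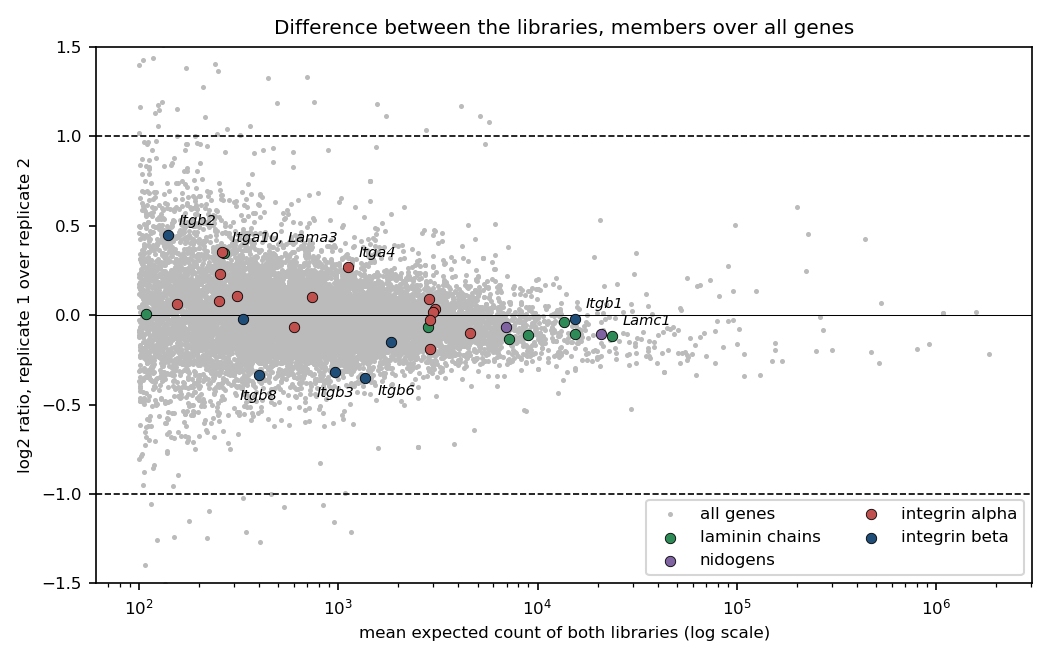
Log2 ratio of replicate 1 over replicate 2 against the mean expected count (log axis) for all genes that average 100 counts or more (grey) and the 31 members among them (coloured by family); dashed lines mark 2-fold, and 42 genes lie outside the axis limit of 1.5. The members lie between -0.35 (Itgb6) and 0.45 (Itgb2), within the cloud of genes of like count.

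The members with the highest TPM in each family differed little. Itgb1 had a log2 ratio of -0.02, Lama2 of -0.04, Nid1 of -0.11, Lamb1 of -0.11, Lamc1 of -0.11 and Itga7 of -0.10. Wider differences were seen in some members with fewer counts, while others with few counts, such as Lamb3 (0.00) and Itgb4 (-0.02), hardly differed. Higher in replicate 1 were Itgb2 (0.45), Itga10 (0.35), Lama3 (0.35), Itga4 (0.27) and Itgam (0.23), and lower were Itgb6 (-0.35), Itgb8 (-0.34) and Itgb3 (-0.32). Below 100 counts, Itga2b had 88 counts in replicate 1 and 55 in replicate 2, a log2 ratio of 0.83, which put it past 1.5-fold, as were 10.5% of all genes that average 10 counts or more. With spike-ins in place of the trimmed mean, the median shifted to 0.11 for the members and 0.12 for all genes, and Itgb2 moved past 1.5-fold (0.59). The direction of Itga7, Lamc1, Nid1 and most other members lower in replicate 1 turned. On that scale 26 of 31 members were higher in replicate 1, as were 9445 of all 12257 genes.

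Some blood marker lists differed between the libraries and others did not. The neutrophil list summed to 73.1 TPM in replicate 1 and 13.8 TPM in replicate 2, with 4 of 7 detected, and the red cell list to 1648 and 312 TPM with 5 of 7 detected. The lymphocyte list summed to 3.81 and 1.14 TPM with 0 of 7 detected, and the macrophage list to 93.3 and 90.8 TPM with 7 of 8 detected. Itgb2 and Itgam were higher in replicate 1 as the neutrophil and red cell lists were, but by far less, while Itgal had a log2 ratio of 0.06. The part of blood cells in these ratios was not tested. For Itga2b and Itgb3, the platelet pair, the platelet list summed to 32.1 and 31.0 TPM with 1 of 8 detected, almost all of it Pf4 (29.8 and 30.0 TPM), while Gp9 and Gp1bb were at 0 in replicate 2. Itga2b was higher and Itgb3 lower in replicate 1, so the chains of this pair did not move together.

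Lists that mark tissue around the fibres also differed. Tendon markers summed to 326 and 185 TPM (7 of 7 detected), cartilage markers to 59.9 and 28.8 TPM (4 of 7, Matn1 at 0 in a library), and bone and osteoclast markers to 69.3 and 22.5 TPM (2 of 8, Ibsp at 0 in a library), all higher in replicate 1. Itga10, which chondrocytes express, was on the same side by its log2 ratio (0.35, and 0.29 in the other quantification). Its TPM were nearly level, at 2.22 and 2.17. In the other quantification its TPM were lower in replicate 1, at 3.35 and 3.68. The part of such tissue in the Itga10 ratio was not tested. Schwann cell markers were lower in replicate 1 (323 and 429 TPM, 7 of 7). Liver markers summed to 10.2 and 105 TPM (4 of 6). Endothelial (262 and 250 TPM, 8 of 8), mural (286 and 291 TPM, 7 of 7), satellite cell (79.6 and 82.9 TPM, 7 of 7) and fibroblast markers (7188 and 5910 TPM, 7 of 7) differed by less. The endothelial sum was higher in replicate 1, although the median log2 ratio of its markers was -0.12.

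Genes for the proteins that join integrins to the cytoskeleton were nearly all expressed as RNA. Of this adhesion core 16 of 17 genes were detected, and 0 of 16 tested were over 2-fold apart in either direction, against 0.718% of all genes. At that share a count of 0 in a list of this size lies near the background. The highest were Itgb1bp2, the muscle chaperone melusin that binds the beta1 tail, with 247 and 275 TPM, Tns1, a tensin, with 101 and 99.9 TPM, Fermt2, the kindlin of muscle, with 86.3 and 87.6 TPM, and Ilk, the integrin-linked pseudokinase, with 66.3 and 71.7 TPM. By TPM Itgb1bp2 stood above Itgb1 in both libraries. By expected counts, not divided by length, Itgb1bp2 (8235 and 10463) was below Itgb1 (14346 and 16453). The epithelial kindlin Fermt1 had 1 count and 0 counts.

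Of 13 other basement membrane genes 12 were detected and 0 of 12 tested were over 2-fold apart, near the background of 0.718% of all genes. Col4a1 (370 and 415 TPM) and Col4a2 (175 and 186 TPM), the chains of the collagen IV network, were followed by the perlecan gene Hspg2 (137 and 147 TPM) and by Col15a1 (115 and 110 TPM). Col4a1 was thus above every laminin and nidogen gene.

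All 9 other laminin receptor genes were detected and 0 of 9 were over 2-fold apart, near the background of 0.718% of all genes. The highest was Rpsa, whose product is also a ribosomal protein, with 358 and 390 TPM. The dystroglycan gene Dag1 had 136 and 155 TPM, the sarcoglycan Sgca 64.7 and 65.2 TPM, and Bcam, the Lutheran receptor for the alpha5 chain, 50.1 and 55.7 TPM. By TPM Dag1 stood above Itga7 and below Itgb1 in both libraries. By expected counts, not divided by length, Dag1 (17226 and 22389) was above Itgb1 (14346 and 16453).

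Of 15 integrin ligands outside the basement membrane 12 were detected. Col1a1 (2951 and 2181 TPM), Col3a1 (2085 and 2085 TPM), Col1a2 (1754 and 1261 TPM) and Postn (600 and 576 TPM) were the highest. Of 14 tested, 1 was over 2-fold higher in replicate 1 (0.465% of all genes) and 1 was over 2-fold lower (0.253%). Spp1, the osteopontin read by Itga9 and Itgav, had 14.2 and 0.46 TPM, a log2 ratio of 4.81, and is itself in the bone list. Fga, a chain of the fibrinogen read by Itga2b with Itgb3, had 0.27 and 3.18 TPM, a log2 ratio of -3.48, and is itself in the liver list. The receptor chains had log2 ratios of 0.09 for Itga9 and 0.02 for Itgav, and of 0.83 for Itga2b, from under 100 counts in each library, and -0.32 for Itgb3. Madcam1, the ligand of Itga4 with Itgb7, had 0.39 and 0.15 TPM.

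All 9 other integrin-associated membrane genes were detected and 0 of 9 were over 2-fold apart, near the background of 0.718% of all genes. They were led by the tetraspanin Cd81 (134 and 145 TPM), the endocytic receptor Lrp1 (71.5 and 70.9 TPM), the tetraspanin Cd9 (34.6 and 38.2 TPM) and Cd151 (32.7 and 33.7 TPM), the tetraspanin that associates with laminin-binding integrins. Their median log2 ratio was -0.05, beside -0.04 for the adhesion core, -0.04 for the other basement membrane genes, -0.11 for the other laminin receptors and -0.02 for all genes.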

How the data were processed

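Total RNA-seq of gastrocnemius was analysed from 2 libraries of 1 group. The authors deposited, for each library, gene and transcript tables of expected counts (estimated reads, not always whole) and TPM, plus a separate transcript quantification with estimated counts and TPM. Notes deposited with the samples name mm10 and GENCODE M21. Aligner, quantifiers and counting strand: not given in the sources used here. Of gene values, 92.5% and 92.4% were whole. CAST/EiJ reads were counted on mm10 and alleles were not separated.

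Detection meant 1 TPM in each library. After rounding of the expected counts, edgeR 4.0.16 in R 4.3.3 gave trimmed-mean factors (genes averaging 10 counts or more) and log2 ratios with a prior count of 2, called by size past 2-fold where the average reached 100 counts. The ratio step was tested on simulated data. Isoforms were matched by exon coordinates, and sequences were read from GENCODE M21 transcripts. Python 3.11.15 with pandas 2.3.3 and matplotlib 3.10.9 served the rest. Alternatives tried were size factors of DESeq2 1.42.0, scaling by library size or spike-ins, other minimums, folds and prior counts, counts for TPM, the other quantification, single libraries and complete coding transcripts.

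The members and lists were chosen with earlier results of these data known. Named genes were every member and, of each of 5 pathway lists, the 4 of highest TPM, those under 1 TPM and those past 2-fold. Bcam, Npnt and the transcripts of Itgb5 were named after their values were seen. Some genes within this rule are withheld and not reported here. Each of 16 marker lists is given by its sum. The labels call the replicates biological, and their spread may include technical variation.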

Additional observations from a re-analysis of the deposited data

How the results depend on the processing

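The number of members detected (31) ranged from 24 to 34 over the alternatives, with 24 at a minimum of 2 TPM and 34 at 0.5 TPM and in the other quantification, and from 31 to 32 with a library left out. The count over 2-fold apart was 0 under each alternative run. The median log2 ratio was 0.11 with spike-ins, where all genes shifted alike, and between -0.06 and 0.02 otherwise. In the other quantification the family shares were 25.2% for Itga7, 76.5% for Itgb1, 48.8% for Lama2, 66.2% for Lamb1, 99.1% for Lamc1 and 68.0% for Nid1, the alpha to gamma ratio was 1.18 and the beta to gamma ratio 1.30, and the splice shares were 21.8% for Itga7 A, 75.4% for Itga7 X2 and 56.8% for Itga6 A. By expected counts the shares were 19.9% for Itga7, 75.3% for Itgb1, 68.0% for Lamb1, 99.5% for Lamc1, 75.1% for Nid1, 3.74% for Itgb1 D and 12.1% for Itga7 A; the alpha to gamma ratio was 1.07 and the beta to gamma ratio turned to 0.953, as counts are not divided by length. Complete coding transcripts, an alternative chosen after seeing the data, gave 26.0% for Itga7, 75.6% for Itgb1, 41.6% for Lama2, 67.9% for Lamb1, 71.0% for Nid1 and a beta to gamma ratio of 1.27, and turned the alpha to gamma ratio (0.925), Lama2 to Lama4 (0.852) and beta1-pairing alphas to Itgb1 (0.910); the cause was not tested. With a library left out, Itga7 ranged from 29.3% to 30.6%, Itgb1 D from 17.2% to 20.9%, Itga6 A from 72.7% to 82.3% and alpha to gamma from 1.35 to 1.37, and no result changed side. Of 33 further member shares, 22 moved by over 1 SD in the other quantification, 26 by counts and 25 with complete transcripts. The leading gene of each family was kept except for the laminin alpha chains. No paired analysis was possible because the series holds 1 group only. With 1 library on each side no spread can be set against a ratio, and members under about 100 counts are limited by depth. No protein was measured.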
